A study of Mus musculus with 104 samples.

Results

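The cortex of BACHD mice, a model of Huntington's disease, was compared with that of wild-type (WT) littermates at 12 months of age, across all genes. The comparison took every cortex library of the BACHD cohort, 8 of the 104 samples of the series, 4 from BACHD and 4 from WT mice. All animals were of the FvB strain, were perfused with PBS and gave fresh frozen tissue. Each genotype was represented by 2 females and 2 males, and each library came from a separate animal. The striatum of the same 8 animals was sequenced too. It is used here, with the cortex of BAC-CAG mice at the same age (8 transgenic against 8 WT littermates), only to show where the BACHD cortex differed. BACHD mice carry a bacterial artificial chromosome with the full-length human HTT gene, whose polyglutamine repeat is expanded and encoded by mixed CAA and CAG codons. The transgene is expressed from human HTT regulatory sequences and is present in addition to the mouse gene. BAC-CAG mice carry a similar transgene with a long uninterrupted CAG repeat. The WT mice carry no transgene, and the mouse Htt gene is present in both genotypes. The series asks whether an uninterrupted CAG repeat or the length of the glutamine tract goes with disease-related changes, and the BACHD line is its case of an interrupted repeat.

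Huntingtin is a large scaffold protein that takes part in vesicle transport, transcription and the supply of brain-derived neurotrophic factor (BDNF) from cortical neurons to the striatum. In Huntington's disease the glutamine repeat near its N-terminus is expanded. Striatal projection neurons are the most vulnerable cells, and cortical pyramidal neurons of the deep layers, which project to the striatum and to targets below it, are affected as well.

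The start of the mouse Htt coding sequence is shown because it holds the glutamine repeat, which is expanded in the transgene. The transgene is human, so it can differ from the resident gene outside this stretch as well. The mouse sequence shown lies at chr5:34761907-34761996 on the plus strand of GRCm38 (transcript from GENCODE M21), in exon sequence that begins at the start codon. Capitals mark the run of glutamine codons.
Htt: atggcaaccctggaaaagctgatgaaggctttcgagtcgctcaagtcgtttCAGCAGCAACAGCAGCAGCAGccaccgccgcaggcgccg
The mouse run holds 7 glutamine codons, 6 CAG and 1 CAA, at bases 52 to 72. The repeat of the transgene is human and was not read here.

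The promoters of Msantd1 and Tacr3, the named genes with the largest positive log2 differences in BACHD cortex, follow. At Tacr3 only BACHD libraries 1, 2 and 4 were above WT. Each window runs from 250 bases before to 50 bases after the RefSeq start (build GRCm38.p6, plus strand), with CG dinucleotides in capitals.
Msantd1, chr5:34915665-34915964: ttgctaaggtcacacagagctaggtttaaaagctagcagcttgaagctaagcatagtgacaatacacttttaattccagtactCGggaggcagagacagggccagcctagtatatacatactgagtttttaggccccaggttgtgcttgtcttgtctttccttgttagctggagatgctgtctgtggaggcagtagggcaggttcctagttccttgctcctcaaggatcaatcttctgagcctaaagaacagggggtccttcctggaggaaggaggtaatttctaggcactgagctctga
Tacr3, chr3:134828757-134829056: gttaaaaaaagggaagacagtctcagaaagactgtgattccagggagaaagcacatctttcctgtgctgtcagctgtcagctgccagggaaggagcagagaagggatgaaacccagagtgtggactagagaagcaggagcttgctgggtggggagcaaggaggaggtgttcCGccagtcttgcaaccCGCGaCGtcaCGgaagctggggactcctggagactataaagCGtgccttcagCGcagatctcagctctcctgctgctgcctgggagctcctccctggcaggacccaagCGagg
The Msantd1 window held 1 CG dinucleotide, and 94.6% of 32851 mouse promoter windows of this length held at least as many. The Tacr3 window held 8, against a median of 7, and 48.6% of windows held at least as many.

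Libraries held 35.3 to 48.4 M counts, with a mean of 41.4 M in WT (SD 5.85, n = 4) and 40.6 M in BACHD (SD 4.70, n = 4). Levels are given as CPM, counts per M counts of the library after adjustment of library sizes by the trimmed mean of M-values (TMM). Over 13900 genes at 1 CPM or more on average, libraries correlated with r between 0.993 and 0.997 within WT, 0.995 and 0.999 within BACHD and 0.993 and 0.998 between genotypes, as a description. Xist and 4 Y-linked genes matched the labelled sex in all 8 libraries. Slc17a7, the glutamate transporter gene of cortical excitatory neurons, lay at 852 to 1004 CPM in WT and 882 to 948 CPM in BACHD libraries. A pair of libraries stood apart. WT replicate 1 had the highest level of choroid plexus markers (257 CPM summed, against 41.8 to 108 in the other WT libraries) and of striatal projection neuron markers (1677 CPM, against 1378 to 1471). BACHD replicate 3 differed from the other BACHD libraries at Htt, Msantd1 and Tacr3, as described next. Lars2, a mitochondrial tRNA synthetase gene that is no neuronal marker, was high in both of these libraries. It was at 1419 CPM in WT replicate 1 and 89.7 to 109 CPM in the other WT libraries, and at 979.9 CPM in BACHD replicate 3 against 93.7, 133.5 and 288 CPM in BACHD replicates 1, 2 and 4. The animal tags of the BACHD mice carry 2 different first numbers, 3 for replicates 1 and 2 and 4 for replicates 3 and 4. Those of the WT mice carry 4 others. No first number occurs in both genotypes, so differences between genotypes cannot be told apart from differences between these numbers. What these numbers stand for is not given in the labels, and replicate numbers follow accession order and are only names. Replicates 1 and 2 of BACHD were the most alike pair, although their counts still differed by more than sampling noise (chi-square per degree of freedom of 2.73, against 9.92 to 26.3 in the other pairs of a genotype).

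Htt was checked first, since the transgene carries its human counterpart. In WT cortex it was at 335, 340.3, 353 and 313 CPM (replicates 1 to 4), and in BACHD cortex at 443, 450.5, 351 and 450.3 CPM. The BACHD libraries 1, 2 and 4 were above every WT library, and library 3 was within the WT range. The log2 difference was 0.33 (SE 0.07, edgeR adjusted p = 0.53). An exact two-sided permutation test gave p = 0.0571, and without BACHD replicate 3 the difference was 0.42. The exact p without that library, 0.0286, is the smallest that 3 against 4 allows and follows from leaving out the 1 BACHD library that was not above WT. DESeq2, run as an alternative, called Htt over all 8 libraries (0.34, adjusted p = 0.0023). Htt (ENSMUSG00000029104) spans chr5:34761740-34912534 on the plus strand. The submitters' notes name mouse references alone, so counts at Htt cannot be assigned to the mouse gene or the transgene.

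Msantd1, a gene of a Myb/SANT-like DNA-binding domain protein that lies beside Htt, rose in BACHD cortex and was the 1 gene of 15839 past the edgeR threshold of an adjusted p of 0.05 (0.00631%). It was at 1.82, 2.06, 1.24 and 1.35 CPM in WT and at 18.3, 18.3, 8.53 and 19.5 CPM in BACHD libraries. All 4 BACHD libraries were above the 4 WT libraries, with library 3 below the other BACHD libraries. The log2 difference was 3.33 (SE 0.24, edgeR adjusted p = 0.00065). The exact two-sided permutation test on log2(CPM + 1), whose difference was 2.66, gave p = 0.0286, the smallest that 4 against 4 allows. Without WT replicates 1 and 4, a setting added after seeing the data, the difference was 3.30 with an adjusted p of 0.0621, so that the call was lost with 2 WT libraries left. Msantd1 (ENSMUSG00000051246) spans chr5:34908012-34923839 on the plus strand, and its body overlaps that of Htt by 4523 bases. No exonic base was shared: of 2905 exonic bases of Msantd1 and 24438 of Htt in GENCODE M21, 0 were common to both. The RefSeq start used for the promoter above lies 3381 bases past the end of Htt. The sequence that flanks HTT in the transgene was in none of the sources used here. Counts at Msantd1, like those at Htt, therefore cannot be assigned to the resident mouse gene or to the transgene.

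The other genes around Htt did not follow. Of 13 listed genes of the neighbourhood 12 were tested, and the 10 besides Htt and Msantd1 had log2 differences between -0.14 (Grk4, a G protein-coupled receptor kinase) and -0.02 (Add1, the cytoskeletal protein adducin 1). None of these 10 had an unadjusted p under 0.05. Tnip2, an inhibitor of NF-kB signalling, came nearest, at 14.5, 15.8, 15.8 and 15.99 CPM in WT and 14.0, 14.2, 14.4 and 14.9 CPM in BACHD libraries (edgeR unadjusted p = 0.0594). Its groups overlapped.

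Tacr3, which encodes the neurokinin 3 receptor for the peptide neurokinin B, showed the largest log2 difference after Msantd1 among the rises named here. It was at 2.48, 2.23, 2.27 and 2.66 CPM in WT and at 14.3, 15.1, 2.31 and 14.9 CPM in BACHD libraries. BACHD libraries 1, 2 and 4 were far above every WT library, and library 3 was among the WT values. Over all libraries the log2 difference was 2.23 (SE 0.43, edgeR adjusted p = 0.53). Without BACHD replicate 3 it was 2.62 with an edgeR adjusted p of 1.45e-06. That small p follows from leaving out the 1 BACHD library that was not above WT. In the striatum of the same animals BACHD libraries 1, 2 and 4 were again above every WT library and library 3 within the WT range, with 2.40, 3.44, 3.97 and 2.01 CPM in WT and 9.85, 8.72, 3.09 and 10.4 CPM in BACHD libraries (log2 difference 1.43, SE 0.35, adjusted p = 0.68). Tacr3 (chr3:134829007-134934579, plus strand) is on another chromosome than Htt. Its 17 tested neighbours within 2 Mb had log2 differences between -0.54 (Bdh2) and 0.09 (Bank1), and 0 of them had an unadjusted p under 0.05. In BAC-CAG cortex Tacr3 was at 2.02 CPM in WT (SD 0.811, n = 8) and 2.38 CPM in transgenic mice (SD 1.47, n = 8), a log2 difference of 0.25 (SE 0.28).

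The position of BACHD replicate 3 differed between these genes. Its excess over the WT mean was 14.1% of the mean excess of the other 3 BACHD libraries at Htt, 40.5% at Msantd1 and -0.752% at Tacr3. In the striatum of the same animal these shares were 43.8%, 45.4% and 2.04%. Msantd1 in striatum was at 4.02, 4.12, 2.80 and 2.73 CPM in WT and at 41.2, 42.8, 21.2 and 43.7 CPM in BACHD libraries. Thus replicate 3 had less Msantd1 than the other BACHD mice and a WT level of Tacr3 in both tissues. A pattern was then set after the values of Tacr3 itself. It asked for BACHD libraries 1, 2 and 4 all over 1.5 times the highest WT library, with library 3 not above that WT library. Of the 13900 genes at 1 CPM or more, Tacr3 was the 1 gene with it, and 0 genes showed the reverse. Since Tacr3 supplied the pattern and the fold, this count is a description only. Htt had the same order of libraries but fell short of that fold. The transgene itself was not examined in this animal.

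**Figure D1:**
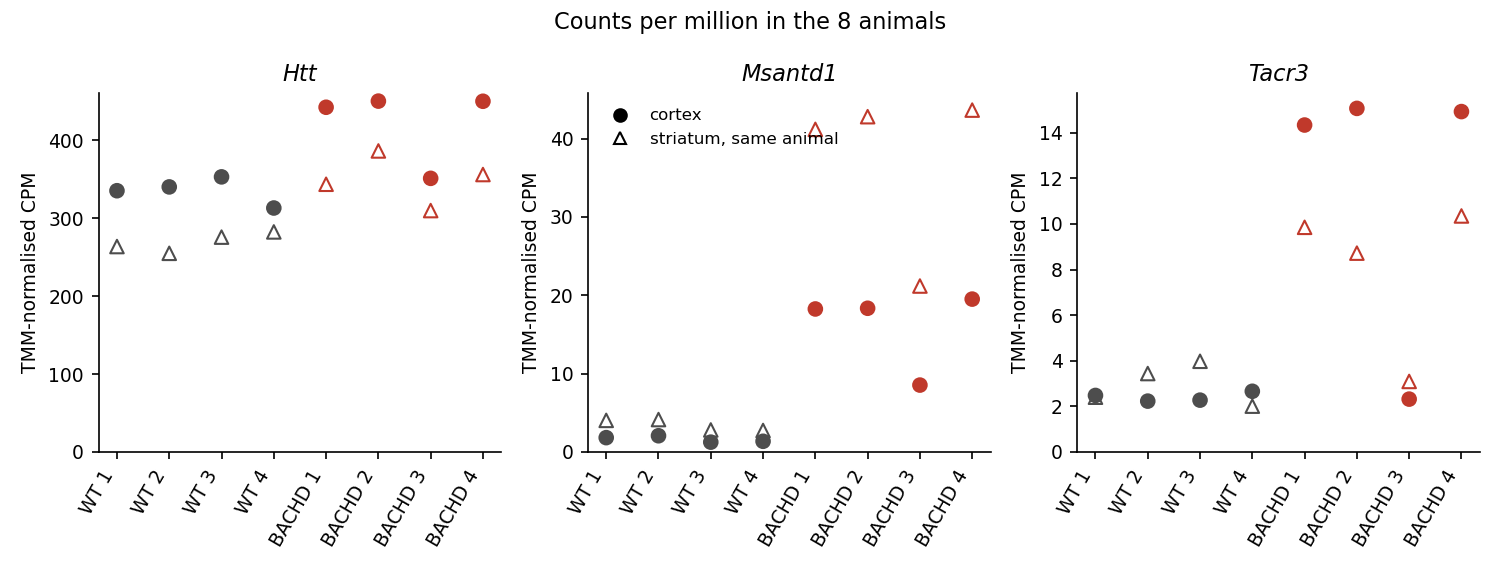
Levels of Htt, Msantd1 and Tacr3 in CPM (linear axes from 0) in each of the 8 animals, WT in grey and BACHD in red, with cortex as filled circles and striatum as open triangles. BACHD replicate 3 sits with the WT libraries at Tacr3 in both tissues (2.31 and 3.09 CPM) and between the genotypes at Msantd1 (8.53 and 21.2 CPM).

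Across the transcriptome few genes were called. Of 15839 tested genes 1 passed the edgeR quasi-likelihood test at an adjusted p under 0.05, which is 0.00631%, and it was Msantd1. Leaving out BACHD replicate 3 gave 4 called genes (Msantd1, Tacr3, Htt and Sema3a). That replicate was the lowest BACHD library at each of these 4 genes, so their calls in that fit depend on its omission or gain from it. Leaving out WT replicate 2 gave 2 (Msantd1 and Pcsk1, a prohormone convertase). At an unadjusted p under 0.05 there were 1008 genes (6.36%), 384 higher (2.42%) and 624 lower (3.94%) in BACHD cortex. In 296 genes (1.87%) all 4 BACHD libraries were above all 4 WT libraries, and in 318 (2.01%) all 4 were below. DESeq2 gave an adjusted p under 0.05 to 18 of the 8469 genes for which it reported one (0.213%), 7 higher and 11 lower. Its filter on low counts left Msantd1, Tacr3 and Chrnb3 without an adjusted p.

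**Figure D2:**
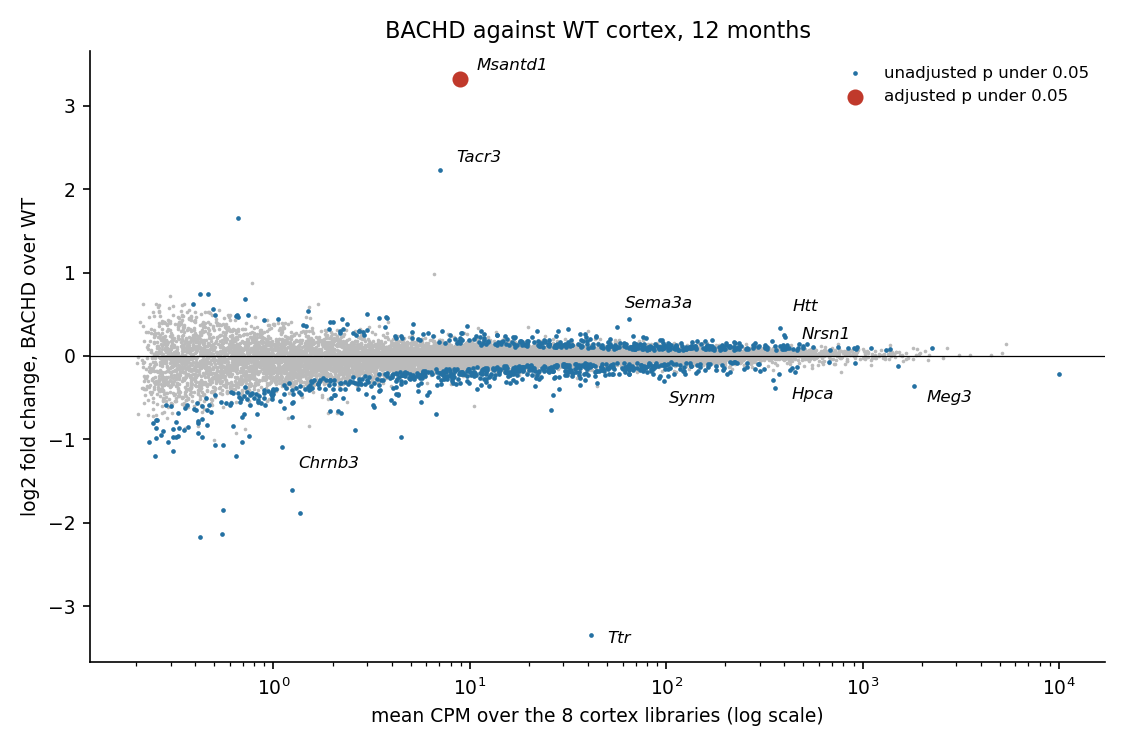
Log2 difference (BACHD minus WT) of each tested gene in cortex against its mean level in CPM (log axis), with some of the genes named in the text labelled. Msantd1, at 3.33, is the 1 gene past the edgeR threshold, and Ttr and Tacr3 are the other named genes beyond 2 in either direction.

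Among the genes of neuronal signalling with the smallest p, Chrnb3 led. It encodes the beta3 subunit of nicotinic acetylcholine receptors. It was at 1.09, 1.44, 1.79 and 1.72 CPM in WT and 0.565, 0.710, 0.780 and 0.745 CPM in BACHD libraries, with no overlap. The log2 difference was -1.09 (SE 0.16, edgeR adjusted p = 0.28), so it did not pass the test. In BAC-CAG cortex, with its own WT littermates, the level was 3.21 CPM in WT (SD 1.23, n = 8) and 1.59 CPM in transgenic mice (SD 0.444, n = 8), a log2 difference of -1.003 (SE 0.21, adjusted p = 0.42). Of the 18 tested genes of the nicotinic and muscarinic receptor list, 12 had positive and 6 negative differences. Those with an unadjusted p under 0.05 in the positive direction were Lypd6 (0.13), which does not itself encode a receptor, and Chrm2 (0.14). Its level near 1 CPM limits the precision at Chrnb3.

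Sema3a and Nrsn1 were the genes with the smallest DESeq2 adjusted p. Sema3a, a secreted semaphorin that repels axons and is held in perineuronal nets, was at 51.9, 47.3, 47.9 and 50.2 CPM in WT and 69.3, 67.0, 53.6 and 62.7 CPM in BACHD libraries. All BACHD libraries were higher, with replicate 3 nearest to WT. The log2 difference was 0.35 (SE 0.06), with an adjusted p of 0.43 in edgeR and 0.00082 in DESeq2. Without BACHD replicate 3 the edgeR value was 0.42 with an adjusted p of 0.0379. That smaller p goes with leaving out the lowest BACHD library. Nrsn1, which encodes the vesicle protein neurensin 1, was at 360.1, 373, 372 and 357 CPM in WT and 447, 470.2, 405.5 and 417.5 CPM in BACHD libraries, again with no overlap (0.25, SE 0.04, adjusted p = 0.36 in edgeR and 0.00033 in DESeq2).

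On the lower side were Synm and Hpca. Synm, the gene of the intermediate filament protein synemin, was at 99.7, 108, 100.5 and 96.6 CPM in WT and 87.3, 86.0, 87.3 and 82.8 CPM in BACHD libraries (-0.24, SE 0.04). Hpca encodes hippocalcin, a neuronal calcium sensor, and was at 411, 373.5, 404 and 420.5 CPM in WT and 326, 345.5, 351 and 361 CPM in BACHD libraries (-0.22, SE 0.04). In both genes the genotypes did not overlap, and both had an adjusted p of 0.0023 in DESeq2 but 0.36 and 0.43 in edgeR.

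The other rises and falls with the smallest p were of similar or larger size in scarcer genes, and none passed the edgeR test. Higher values were seen for Tmem150c, a membrane protein linked to mechanosensitive currents (0.32, SE 0.06), Lrrtm2, a postsynaptic adhesion protein that binds neurexins (0.18, SE 0.04), Ipcef1 (0.17, SE 0.04), Rnf144b (0.16, SE 0.04) and the growth factor Fgf5 (0.45, SE 0.10). Pdlim1, Fam160a1 and Akr1c18 had differences of 0.51, 0.38 and 0.35. Lower values were seen for Epha8, an ephrin receptor (-0.47, SE 0.09), Robo3, a receptor in axon guidance (-0.65, SE 0.14), Fst, the activin antagonist follistatin (-0.46, SE 0.09), and Zfp945, a zinc finger protein (-0.28, SE 0.06). The extracellular matrix genes Col5a2, Col24a1 and Postn had differences of -0.66, -0.70 and -0.61. Ryr1, a calcium release channel, was at -0.33, Rnf207 at -0.55, Ptprv at -0.53, Hfm1 at -0.63 and Fam13a at -0.23. The groups overlapped in Fst and Robo3 only among these, and in each of the others all 4 BACHD libraries lay on 1 side of all WT libraries. In the separate BAC-CAG comparison Zfp945 had a difference of -0.39 (SE 0.08, adjusted p = 0.42), and Robo3 and Col5a2 had differences of -0.02.

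Beside those already given, DESeq2 called Tmem215 (-0.40), Meg3 (-0.35), Igfbp4 (-0.33), Enpp2 (-0.28), Zfp945 (-0.28), Tmem150c (0.32), Ipcef1 (0.17), Rprm (0.30) and Lrrtm2 (0.18), and 4 further genes, Akap8l, Leng8, Pabpn1 and Rgl2, with differences between -0.36 and -0.24. Akap8l, Leng8 and Pabpn1 act in the nucleus and were chosen for naming after their values were seen. Meg3, a long noncoding RNA, was at 1702, 2266, 2133 and 2105 CPM in WT and 1471, 1306, 1799 and 1893 CPM in BACHD libraries, and its groups overlapped. Igfbp4, which binds insulin-like growth factors, was at 44.7 to 54.5 CPM in WT and 34.9 to 42.6 CPM in BACHD libraries, without overlap. Synm, Hpca, Tmem150c, Ipcef1 and Lrrtm2 each overlap a gene on the opposite strand. Libraries were strand-specific, but the strand setting of the counting is not given in the sources used here.

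**Figure D3:**
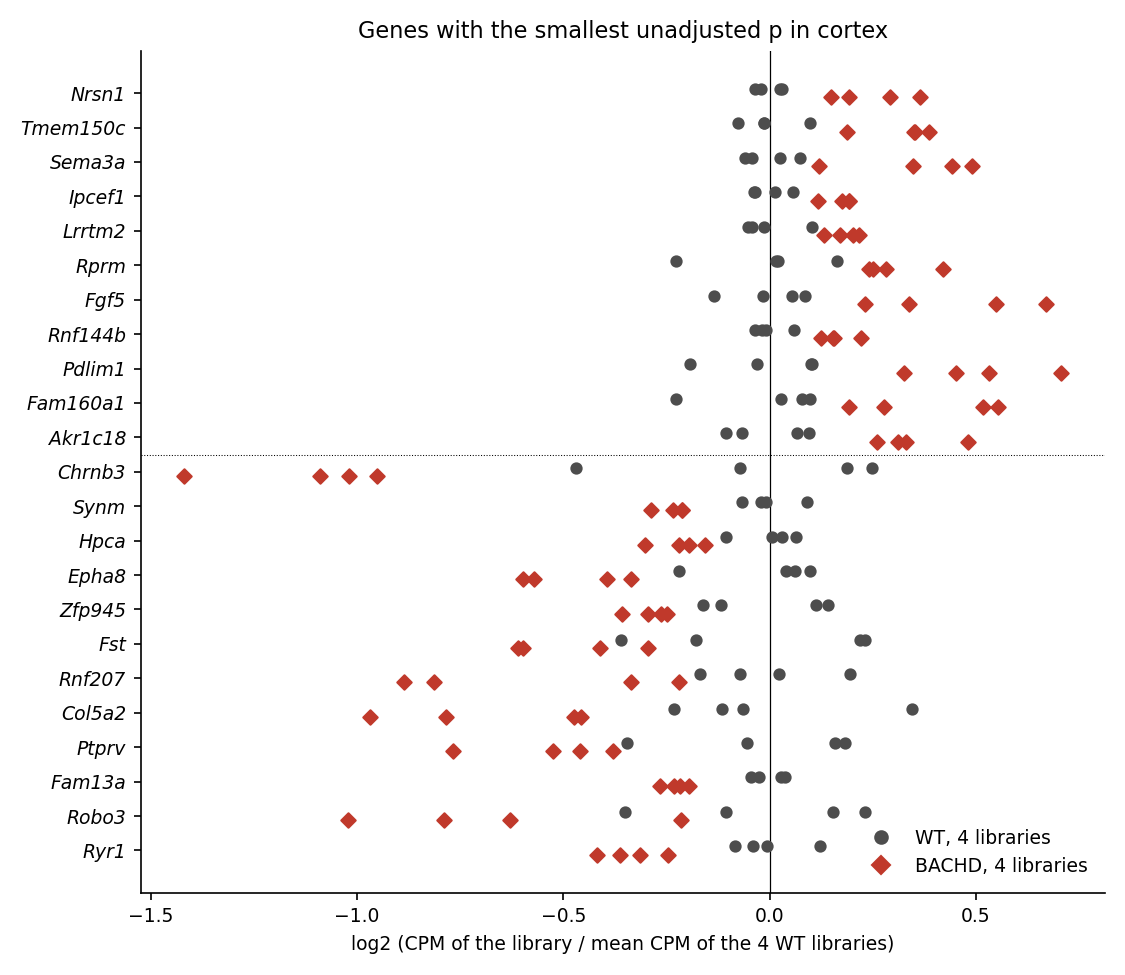
Level of genes with the smallest unadjusted p in each cortex library, as log2 of its CPM over the mean CPM of the 4 WT libraries (WT as grey circles, BACHD as red diamonds), with positive differences above the dotted line and negative ones below. All 4 BACHD libraries are separate from WT except at Fst and Robo3, and Chrnb3 lies farthest out on the lower side; Msantd1, Tacr3 and Htt are in the plot of the 8 animals.

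Small differences followed the base composition of transcripts. For 14821 of the 15839 genes (93.6%) a transcript GC content was at hand. The median log2 difference went from 0.03 in the 2965 genes with the lowest GC content (29.1% to 43.9%) to -0.04 in the 2964 genes with the highest (55.6% to 72.8%). Among genes with an unadjusted p under 0.05, 157 were higher and 64 lower in the lowest class, and 19 were higher and 258 lower in the highest. Relative to the mean of the libraries, the highest class minus the lowest was 0.01, 0.03, 0.07 and 0.01 (log2) in WT libraries and -0.03, -0.004, -0.05 and -0.03 in BACHD libraries, so the 2 genotypes did not overlap. With a GC trend removed from each library, in a setting added after seeing the data, 784 of these 14821 genes (5.29%) had an unadjusted p under 0.05, 299 higher and 485 lower, against 959 (6.47%), 370 higher and 589 lower, of the same genes without that step. Msantd1 was again the 1 gene called (adjusted p = 0.00051). The part of this GC trend in the differences of single genes was not tested. Differences went with transcript length as well. Among genes with an unadjusted p under 0.05, 46 were higher and 95 lower in the fifth with the shortest transcripts. In the fifth with the longest, 135 were higher and 100 lower. Length and GC content were not separated.

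The gene groups below are described by counts and by the median log2 difference of their tested members, which over all tested genes was 0.00, with 7676 of 15839 differences positive (48.5%). None of their members passed the edgeR test. Counts of members at an unadjusted p under 0.05 stand against shares over all tested genes of 2.42% higher and 3.94% lower. Medians near 0 depended on single libraries: in 14 of 36 lists, all with a median within 0.05 of 0, leaving out 1 library or another turned the sign. These were the lists of upper-layer, hippocampal, reactive astrocyte, myelin, meningeal, immediate early, voltage-gated channel, BDNF signalling, mitochondrial tRNA synthetase, DNA repair, huntingtin partner, circadian clock, clustered protocadherin and RNA splicing genes. In bulk tissue fewer cells of a type and less RNA per cell cannot be told apart.

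Deep-layer neuron genes (layers 5 and 6) had mostly positive differences. Of 25 tested markers 19 were positive, 7 had an unadjusted p under 0.05, all of them higher (2.42% of all genes did so), and the median was 0.09. Rprm, a cell cycle regulator gene that marks layer 6, was at 25.6, 21.6, 25.7 and 28.4 CPM in WT and 30.8, 29.9, 30.1 and 33.8 CPM in BACHD libraries (0.30, SE 0.07). Ldb2, a cofactor of LIM-domain transcription factors in subcortical projection neurons, was at 48.3, 49.8, 48.8 and 45.2 CPM in WT and 54.0, 54.4, 52.0 and 60.6 CPM in BACHD libraries (0.20, SE 0.05). Neither gene's groups overlapped, and the same held for Tle4, a corepressor of layer 6 neurons (0.12), and for Deptor, an inhibitor of mTOR in layer 5 neurons (0.17, chosen after its values were seen). The summed level of the list was 681 to 714.5 CPM in WT and 710.2 to 756 CPM in BACHD libraries, which overlapped. Leaving out single libraries gave list medians between 0.07 and 0.11 with 3 to 10 such members, and with the GC trend removed it was 0.09. The same genes had a median of 0.03 in BACHD striatum and -0.09 in BAC-CAG cortex. In females the median was 0.04 and in males 0.16, as descriptions on the log2(CPM + 1) scale.

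Upper-layer genes (layers 2 to 4) had a median of -0.03, with 14 of 19 negative and 2 lower at an unadjusted p under 0.05 (3.94% of all genes). Without WT replicate 2 or 3 the median was 0.01 or 0.02 with 10 of 19 positive, and voom gave 0.01. Without WT replicate 1 it was -0.06, with 5 lower and 1 higher at that p. Without WT replicates 1 and 4, the setting added after seeing the data, it was -0.10, with 7 lower and 1 higher. The lower members were Otof, which encodes the calcium sensor otoferlin (-0.23), and Calb1, which encodes the calcium-binding protein calbindin (-0.09). The 20 markers of excitatory neurons in general had a median of 0.02. Calb1 was at 167 to 178 CPM in WT and 161 to 164 CPM in BACHD libraries, a small difference without overlap.

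Genes of inhibitory signalling had differences in both directions. Gad1, which makes GABA, was at 404, 396, 393 and 376 CPM in WT and 429, 417, 436 and 408 CPM in BACHD libraries (0.11, SE 0.04), without overlap. The 18 tested GABA receptor genes summed to 4735 to 4804 CPM in WT and 4817 to 4950 CPM in BACHD libraries, also without overlap. Gabra5, a subunit of extrasynaptic receptors, had a difference of 0.26 (SE 0.07), while 10 of the 18 had positive and 8 negative values, a share of 55.6% positive. Among 32 interneuron markers 21 were positive, with a median of 0.04. At an unadjusted p under 0.05, 1 was higher and 3 lower (2.42% and 3.94% of all genes). The 3 were Ndnf, Dlx1 and Penk, which is also on the striatal projection neuron list. Without WT replicate 1, where Penk was highest, 2 were higher and 1 lower. With single libraries left out, 1 to 6 were higher and 1 to 3 lower. Members of the class thus differed in direction, and how many did so depended on single libraries.

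Glutamate receptor and scaffold genes had a median of 0.02 over 40 tested. At an unadjusted p under 0.05, 3 were higher and 1 lower (2.42% and 3.94% of all genes). Voltage-gated channels had 1 higher and 1 lower of 47 (median 0.01). Slc17a6, the transporter of excitatory neurons that is most abundant in thalamus, had a difference of 0.18 (SE 0.05), but 7 of the 10 tested thalamic markers were negative. Immediate early genes had 27 of 41 positive, with a median of 0.03 and 4 higher at an unadjusted p under 0.05 (2.42% of all genes): Bdnf, Homer1, Rheb and Scg2. This group depended on single libraries. Without WT replicate 1 the median was -0.04 with 17 positive, 3 higher and 2 lower, and without WT replicate 2 it was 0.20 with 38 positive and 15 higher. Without WT replicate 4 or BACHD replicate 3, 0 members were higher at that p.

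BDNF made in cortex is a well-known target of huntingtin. Bdnf was at 36.0, 49.9, 38.5 and 37.1 CPM in WT and 49.0, 48.4, 46.5 and 44.02 CPM in BACHD libraries. WT replicate 2 was the highest of all, so the groups overlapped (0.22, SE 0.08, adjusted p = 0.73). Creb1, a transcription factor that acts on Bdnf, was at 105 to 112 CPM in WT and 114 to 118 CPM in BACHD libraries (0.09, SE 0.03). Over the 18 tested genes of the list 10 differences were negative and the median was -0.01. Among 26 tested partners of huntingtin the median was -0.01, with Sgk1 and Rasd2 lower at an unadjusted p under 0.05 (3.94% of all genes were). Rasd2 is also on the striatal projection neuron list, where 0 members were lower at that p without WT replicate 1. The partner list still had 2 lower members in that setting. Sgk1, a kinase that phosphorylates huntingtin, was at 78.9, 78.3, 79.9 and 85.9 CPM in WT and 64.9, 68.1, 75.4 and 76.2 CPM in BACHD libraries (-0.19, SE 0.04), without overlap.

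Striatal projection neuron genes depended on 1 WT library. Of 23 tested, 17 were negative, with a median of -0.18. At an unadjusted p under 0.05, 6 were lower and 1 higher (3.94% and 2.42% of all genes). Without WT replicate 1 the median was 0.00, and without WT replicates 1 and 4 it was 0.07, with 14 of 23 positive. Penk, the enkephalin precursor, was at 50.3 CPM in that library and at 23.3 to 25.6 CPM in the other WT libraries, against 16.6 to 24.8 CPM in BACHD libraries. Drd2, the dopamine D2 receptor gene that cortical tissue should barely express, was at 0.48 to 2.52 CPM over all 8 libraries.

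Choroid plexus and ependymal genes were the list with the most negative median, -0.59, with 14 of 16 tested negative. At an unadjusted p under 0.05, 7 were lower (3.94% of all genes were). Ttr, the thyroid hormone carrier transthyretin of the choroid plexus, was at 199, 20.4, 11.03 and 72.0 CPM in WT and 8.58, 3.05, 9.69 and 5.93 CPM in BACHD libraries (-3.34, SE 0.80). The summed level was 257, 54.6, 41.8 and 108 CPM in WT and 40.8, 33.7, 40.1 and 31.5 CPM in BACHD libraries. Thus the genotypes were separate, but WT replicate 3 was 41.8 CPM against 40.8 CPM in the nearest BACHD library, and the median was -0.22 without WT replicate 1 and -0.18 without WT replicates 1 and 4. In BACHD striatum the list had a median of -0.16, and in BAC-CAG cortex 0.22. The part of choroid plexus carried over at dissection was not tested.

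Myelin genes were led by members with lower values in BACHD cortex. Enpp2, an enzyme of lysophosphatidic acid synthesis that choroid plexus also expresses, was at 461, 361, 346.5 and 366 CPM in WT and 336, 327, 316 and 278 CPM in BACHD libraries (-0.29, SE 0.07). Hapln2, a link protein of the nodes of Ranvier, and Aspa, which encodes aspartoacylase and was chosen after its values were seen, had differences of -0.23 and -0.20. None of these genes overlapped between genotypes. In all, 4 members were lower at an unadjusted p under 0.05 (3.94% of all genes), and 1 was higher (2.42% of all genes), Ppp1r14a (0.41). Over all 25 tested the median was -0.04 and the summed levels overlapped, at 2400 to 2830 CPM in WT and 2095 to 2599 CPM in BACHD libraries. The choroid plexus sum given above moved in the same direction, and its part in Enpp2 was not tested.

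Interferon response genes were mostly on the negative side, with 25 of 34 tested negative and a median of -0.10. At an unadjusted p under 0.05, 6 were lower (3.94% of all genes were). Tap1, a peptide transporter of antigen presentation, was at 4.36, 4.17, 4.67 and 4.42 CPM in WT and 3.85, 3.81, 3.60 and 3.45 CPM in BACHD libraries (-0.26, SE 0.09). Ifi44 (-0.89, SE 0.29) and the immunoproteasome subunit gene Psmb9 (-0.52, chosen after its values were seen) did not overlap either, at levels between 0.118 and 1.52 CPM. H2-D1 and H2-K1, of class I antigen presentation, had differences of -0.20 and -0.36 with overlap. The median was -0.13 to -0.08 when single libraries were left out, with 2 to 9 lower members, and it was 0.13 in BAC-CAG cortex.

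Glial and vascular classes differed little. Astrocyte markers had a median of -0.04, with Glul, the glutamine synthetase gene, at 1545 to 1592 CPM in WT and 1394 to 1524 CPM in BACHD libraries (-0.12, SE 0.04), without overlap. Reactive astrocyte genes had 11 positive and 11 negative differences, and S1pr3, a sphingosine 1-phosphate receptor, was the 1 higher at an unadjusted p under 0.05 (0.30, SE 0.07). Microglial markers had a median of -0.07, with 1 higher and 1 lower. Endothelial and pericyte markers had a median of -0.04, and Slc2a1, the glucose transporter of the blood-brain barrier, a difference of -0.13 (SE 0.04). Oligodendrocyte precursor markers had a median of 0.03 (0.004 to 0.10 with single libraries left out), with 0 of 18 at an unadjusted p under 0.05. Blood genes had 4 tested members and a median of 0.24, which was 0.09 without WT replicate 1 and 0.34 without WT replicate 2, with the beta-globin gene Beta-s at 41.2 to 64.4 CPM in WT and 48.7 to 99.5 CPM in BACHD libraries. Meningeal and fibroblast markers summed to 224 CPM in BACHD replicate 4 and to 485 to 770 CPM in the other 7 libraries. Their median difference was -0.04 with 8 of 22 positive, and without BACHD replicate 4 it was 0.15 with 19 positive and 4 higher at an unadjusted p under 0.05.

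Several processes linked to Huntington's disease showed medians near that of all genes, although some had more positive members. Oxidative phosphorylation (35 of 48 tested positive, median 0.02), autophagy and the proteasome (24 of 35, 0.02), DNA repair genes that modify repeat length (8 of 22, -0.01) and the circadian clock (8 of 22, -0.01) each had 0 members at an unadjusted p under 0.05. Chaperones had 26 of 34 positive with a median of 0.02, and the 1 at that p was Cryab, a small heat shock protein (0.14, SE 0.04). The unfolded protein response had 2 of 29, both higher, with a median of 0.03. Cholesterol synthesis had a median of 0.02 over 29 genes. Cyp46a1, which removes cholesterol from neurons, was at 140, 142, 135 and 140 CPM in WT and 125, 130, 135 and 121 CPM in BACHD libraries (-0.13, SE 0.04), with no overlap although BACHD replicate 3 lay next to WT replicate 3. Among 39 RNA splicing factors Nova1, a neuronal splicing factor, had the smallest p (0.23, SE 0.05). Of these factors 3 were higher and 1 lower at an unadjusted p under 0.05 (2.42% and 3.94% of all genes). Clustered protocadherins had 39 of 58 positive, with a median of 0.03. Without WT replicate 3 it was 0.10 with 53 positive, and without WT replicate 4 it was -0.01 with 26 positive.

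**Figure D4:**
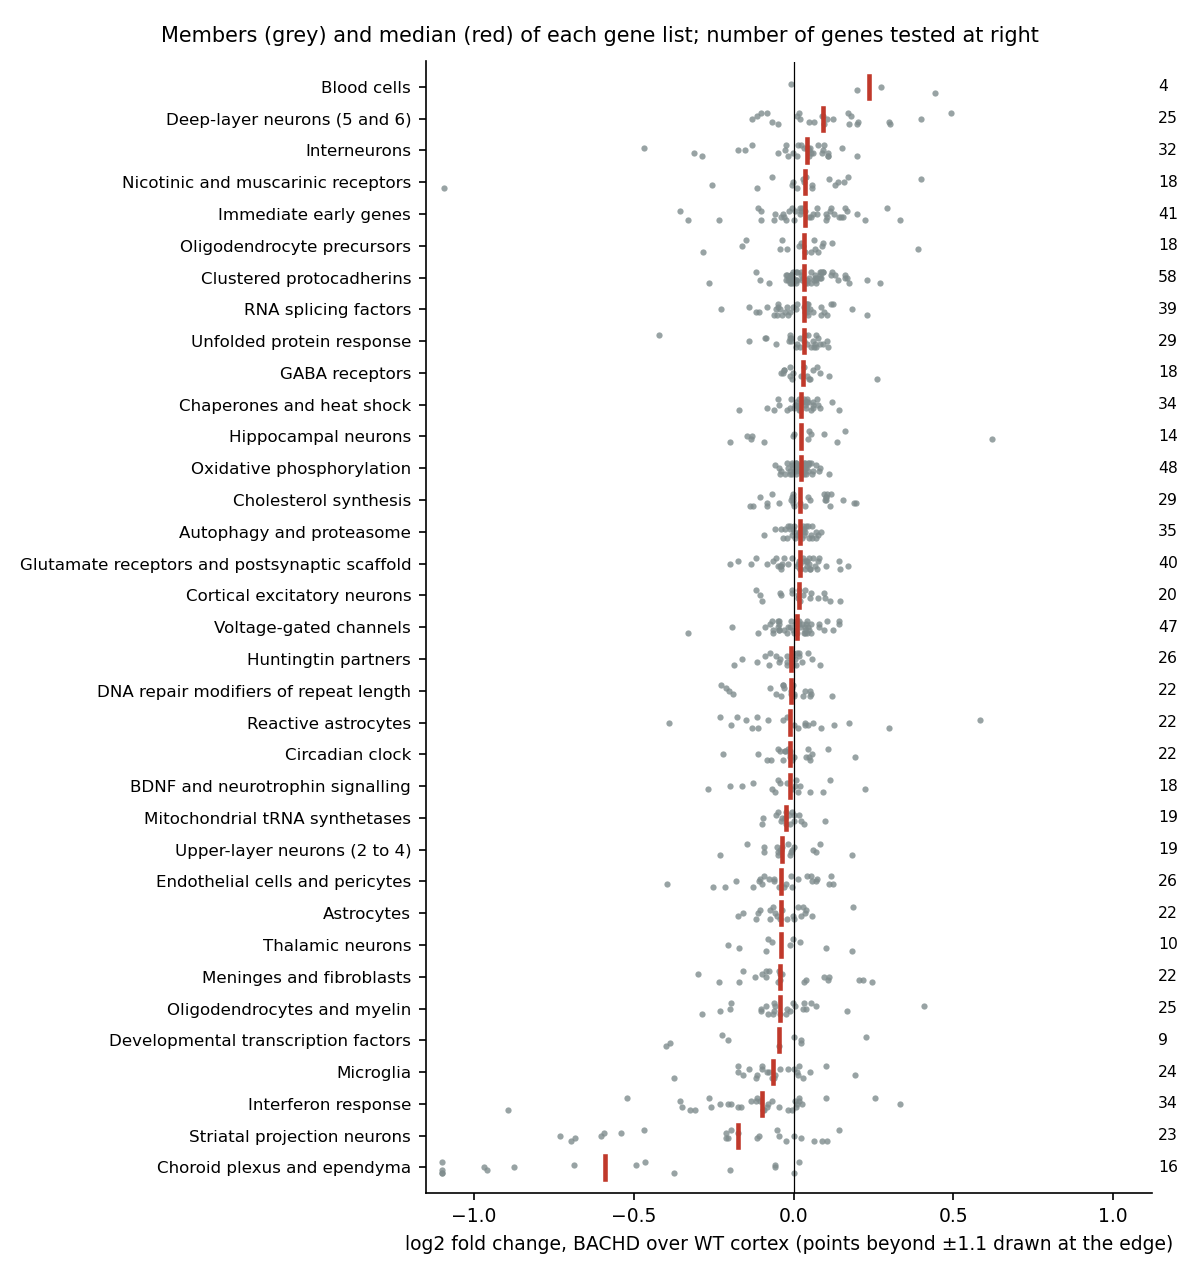
Log2 differences (BACHD minus WT cortex) of the tested members of each gene list, 1 grey point per gene, with the list median in red and points beyond ±1.1 drawn at the edge. Deep-layer neuron genes lie mostly to the right (median 0.09), and interferon genes (-0.10), striatal projection neuron genes (-0.18) and choroid plexus genes (-0.59) mostly to the left.

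The cortex was next compared with the striatum of the same animals, by a test of the difference between the 2 genotype effects. Of 16368 genes 1 passed (0.00611%), Pkp2, and 1156 had an unadjusted p under 0.05 (7.06%). In BACHD striatum alone 6 of 15861 genes were called (0.0378%). Pkp2 encodes plakophilin 2, a plaque protein of desmosomes. In cortex it was at 3.79, 3.58, 3.85 and 4.76 CPM in WT and 3.17, 3.01, 3.98 and 4.55 CPM in BACHD libraries, which overlapped (-0.13, SE 0.11). In striatum it was at 7.17, 7.92, 8.65 and 8.36 CPM in WT and 2.41, 2.55, 3.07 and 2.63 CPM in BACHD libraries (-1.59, SE 0.09). The cortex effect minus the striatum effect was 1.46 (SE 0.14, edgeR adjusted p = 0.00018), in a fit that did not pair the 2 tissues of an animal. With the animal as a block Pkp2 was again the 1 gene called, with an edgeR adjusted p of 0.0214. Leaving out single libraries gave 1 to 12 called genes, the 12 without WT striatum replicate 4, and DESeq2 called 18 of 8435 (0.213%). The next smallest p were those of Ogfrl1, Gnb4, Kcnip4 and Cdk19, whose differences lay between 0.42 and 0.60 with an adjusted p of 0.15 each. In these 4 genes the cortex values were between -0.02 (Cdk19) and 0.19 (Ogfrl1), and the striatum values between -0.50 (Gnb4) and -0.23 (Ogfrl1). Msantd1, Htt and Tacr3 had cortex minus striatum values of -0.11 (SE 0.38), -0.03 (SE 0.11) and 0.82 (SE 0.65).

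The BACHD cortex was also set against the BAC-CAG cortex, each relative to its own WT littermates. BAC-CAG cortex had 1 called gene of 17907 (0.00558%), which was also Msantd1. The test of the difference between lines called 0 of 15285 genes (0%), with 461 at an unadjusted p under 0.05 (3.02%), and DESeq2 called 0 of 15280 (0%). Without BACHD replicate 3, the BACHD library with a WT level of Tacr3, the edgeR test called 1 gene, Tacr3. The smallest p were those of Tbkbp1, an adaptor of innate immune signalling (-0.28, SE 0.06), Ttr (-3.94, SE 0.89), Myo7a, an unconventional myosin (-0.58, SE 0.14), Trpv4, a calcium channel that choroid plexus also expresses (-1.23, SE 0.30), and Rgl2, a Ral exchange factor (-0.42, SE 0.11). Trpv4 was at 1.07, 0.676, 0.633 and 0.613 CPM in WT and 0.4998, 0.331, 0.296 and 0.304 CPM in BACHD libraries, and WT replicate 1, which had the highest choroid plexus sum, was again the highest. At Msantd1 the BACHD minus BAC-CAG value was 1.38 (SE 0.38) with an unadjusted p of 0.00125 and an adjusted p of 1. At Chrnb3 it was -0.13 (SE 0.44).

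The genotype effect was tested for a difference between the sexes, with 2 libraries per sex and genotype. Of 15839 genes 0 passed (0%), and 1103 had an unadjusted p under 0.05 (6.96%), while DESeq2 called 20 of 9390 (0.213%). Leaving out any single library left 1 library of that sex and genotype. Calls of such fits rest on that library and are not given. Among the smallest p were those of Fdft1, an enzyme of cholesterol synthesis, Slc20a2, a phosphate transporter, Rtn4rl1, a Nogo receptor homologue, and Gja1, the gap junction protein connexin 43 of astrocytes. Fdft1 was at 76.1 and 72.4 CPM in WT females and 68.1 and 69.0 CPM in BACHD females, but at 62.9 and 64.6 CPM in WT males and 82.5 and 80.4 CPM in BACHD males. The female effect minus the male effect was -0.47 (SE 0.07, adjusted p = 0.39). The median of the cholesterol synthesis list was -0.11 in females and 0.12 in males on the log2(CPM + 1) scale. Gja1 was at 202 and 198 CPM in WT females, 210 and 213 CPM in BACHD females, 209 and 215 CPM in WT males and 171 and 175 CPM in BACHD males. The BACHD males were replicates 3 and 4, whose animal tags share their first number, and the females were replicates 1 and 2, so among BACHD mice sex and that number cannot be told apart.

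**Figure D5:**
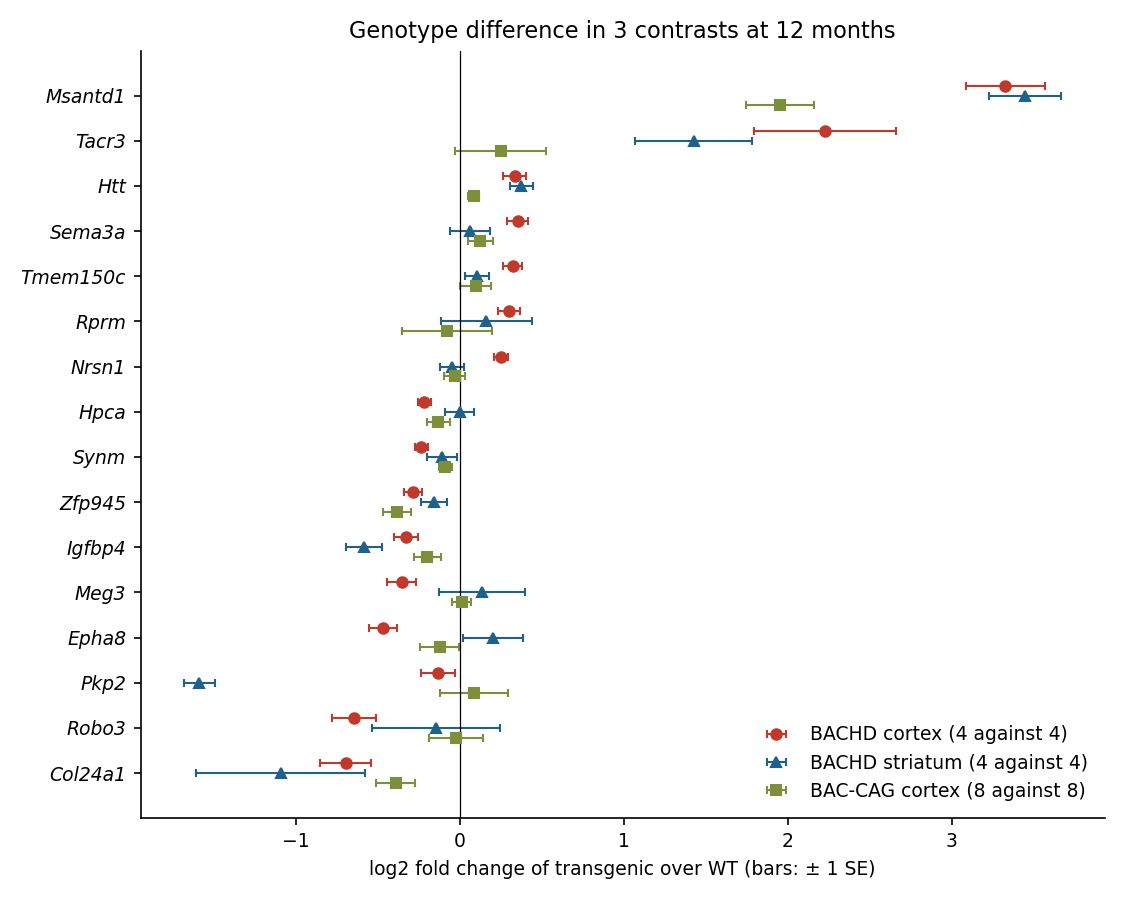
Log2 differences between transgenic and WT mice, with SE as bars, for named genes in BACHD cortex, BACHD striatum and BAC-CAG cortex. Msantd1 is positive in all 3 (3.33, 3.45 and 1.95), Tacr3 stands out in the BACHD line, and Pkp2 is far below 0 in the striatum but not in the cortex.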

How the data were processed

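Stranded TruSeq libraries were made from total RNA of cortex, as the labels' protocols state. The deposited values are whole-number counts per gene, made by the authors with STAR and HTSeq on GRCm38 (mm10) per the submitters' processing notes. Their versions and settings are not given in the sources used here. The deposited counts were tested with edgeR 4.0.16 (R 4.3.3): TMM factors, filterByExpr by genotype, sex as a covariate and the two-sided quasi-likelihood F test with Benjamini-Hochberg adjustment over all tested genes. SE is the log2 difference over the square root of F. Differences between tissues, lines (21462 shared symbols) and sexes were contrasts of genotype effects. Alternatives were DESeq2 1.42.0, limma 3.58.1 voom with quality weights, RLE factors, no low-count filter, no sex covariate, edgeR's legacy method, all 16 libraries of the cohort in 1 fit, another pseudocount and single libraries left out. The fits were tested on simulated data.

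Striatum and cortex came from the same 8 animals. Their deviations from group means correlated with 0.127 to 0.475 (median 0.307), and 2 of 8 libraries correlated best with their own partner.

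Named genes were those called, the 12 rises and 12 falls with the smallest p at a mean of 1 CPM or more, the 6 largest in each direction without overlap and with p under 0.01, up to 4 per list, up to 5 per tested difference, the genes near Htt and up to 10 that DESeq2 called. A few genes the rule names are not reported here. The comparison, the lists and the rule were chosen with earlier results of these data known. The total per library, 35.3 to 48.4 M counts, limits genes near 1 CPM most.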

Additional observations from a re-analysis of the deposited data

Results flagged for a closer look

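Values are CPM unless stated. Single libraries stood apart from the other 3 of their genotype in 13 of 214 groups checked with Dixon's test at the 95% level, where chance gives about 1 in 20. The groups covered a part of the genes named above, the summed lists and the library totals. Other genes with printed values, among them Penk and Lars2, were not checked singly. BACHD replicate 3 was the lowest BACHD library at Htt (351.3, the others 442.6 to 450.5), at Msantd1 (8.529, the others 18.25 to 19.51) and at Tacr3 (2.314, the others 14.34 to 15.07), and the highest in the summed oxidative phosphorylation genes (7296, the others 6922 to 6962). WT replicate 1 was the highest WT library at Enpp2 (461.1), Psmb9 (1.521), Kl, a choroid plexus gene (11.22), Trpv4 (1.067) and Myo7a (5.404), and in the summed mitochondrial tRNA synthetase genes (1995, the others 659.7 to 673), to which Lars2 gave 1419. BACHD replicate 3 was also high in that sum (1567, the other BACHD libraries 651.7 to 860.1), short of the test's limit. Summed levels also stood apart for astrocytes in WT replicate 3 (12070), nicotinic and muscarinic receptors in WT replicate 2 (1061) and the circadian clock in BACHD replicate 1 (2298).

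The genotype effect on Pkp2 differed between the tissues of the same animals by the test of the difference itself, with a cortex minus striatum value of 1.46 (log2).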

How the results depend on the processing

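Msantd1 was the 1 called gene in cortex under RLE factors, no filter, no sex covariate, voom, the legacy method, all 16 libraries in 1 fit, a threshold of 0.1 and the added GC offset. DESeq2 called 18 genes, and 0 were called by edgeR without WT replicates 1 and 4 (added after seeing the data), where 1667 genes had an unadjusted p under 0.05. Leaving out single libraries gave 1 to 4 genes. For the cortex minus striatum difference DESeq2 called 18, single omissions gave 1 to 12, and the replicate block (the animal) gave 1, Pkp2, with an adjusted p of 0.0214, and changed no call. For the difference between lines single omissions gave 0 to 1, and for the difference between sexes DESeq2 called 20. Single omissions in the test between sexes left 1 library of a sex and genotype, so their counts are not given. The exact tests on log2(CPM + 1) gave Htt 0.30 to 0.42 (p = 0.0286, the smallest possible, without BACHD replicate 3, otherwise 0.0571 to 0.0857) and Msantd1 2.56 to 2.92 under single omissions. Of the alternatives for list medians 17 moved and 415 did not, and for single genes 28 passed the threshold newly, 1 lost it (Msantd1, above) and 1149 did neither. No single gene changed direction. Of all 612 alternative list medians 44 changed sign, in 18 of 36 lists, and striatal projection neuron genes went from -0.18 to 0.07 without WT replicates 1 and 4. The causes were not tested. With 4 libraries per genotype and 2 per sex, small differences and those of genes near 1 CPM are the least certain.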
